A study of Mus musculus with 16 samples.

Results

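The 10 genes described here are widely used markers of mesenchymal cells and of the matrix these cells make, in libraries that were sorted as thymic epithelium. They are the receptor genes *Pdgfra* and *Pdgfrb*, the proteoglycan genes *Dcn*, *Lum* and *Ogn*, the matrix genes *Mgp*, *Fn1*, *Postn* and *Tgfbi*, and the intermediate filament gene *Vim*. They were taken by name, collagens excluded, and all 10 were found among the 23420 gene entries of the count table. The question they address is whether RNA of stromal cells was carried over into the sorted epithelium or whether the epithelium itself holds these transcripts.

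Mesenchymal cells of the thymus, among them capsular and medullary fibroblasts and the pericytes around vessels, surround the epithelium and lay down its matrix. PDGF receptors are tyrosine kinases on such cells, and their ligands are often made by neighbouring epithelium and endothelium. Small leucine-rich proteoglycans such as decorin, lumican and osteoglycin bind collagen fibrils, while fibronectin, periostin and the TGFBI protein connect cells to the matrix. None of these transcripts is strictly limited to mesenchyme, and vimentin in particular is made by many cell types.

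The study compared thymic epithelial cells of wild-type mice (psmb11 +/+, here WT) and of mice lacking *Psmb11* (psmb11 -/-, here KO), all given as a C57BL/6-derived BAC strain. *Psmb11* encodes the catalytic subunit of the thymoproteasome, a proteasome form of cortical epithelium. Cells that were CD45-negative and EpCAM-positive were sorted as cortical epithelium (cTEC, Ly51-positive and UEA1-negative) or medullary epithelium (mTEC, UEA1-positive), the latter split into MHC II low (mTEClo) and MHC II high (mTEChi) cells. There were 2 cTEC libraries, 3 mTEClo libraries and 3 mTEChi libraries of each genotype, 16 in all. No group received a treatment. The labels give an age of 6 to 8 weeks and the series 11 thymi, whereas the extraction protocol speaks of 14 mice aged 7 days, so the age is uncertain. The labels do not say how many animals stand behind a library, and p-values therefore measure the spread between libraries only.

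Gene counts ranged from 64753610 to 146707262 per library. *Psmb11* had 15214 and 12756 counts in the WT cTEC libraries against 157 and 0 in the KO cTEC libraries, and was lower in every KO library than in every WT library of the same population. The epithelial marker *Epcam* was high in all 16 libraries. The cTEC libraries varied far more among themselves than the others, with a biological coefficient of variation of 0.652 against 0.131 in mTEClo and 0.113 in mTEChi. In mTEClo, KO replicate 2 stood apart for matrix genes outside the 10, with 88962 counts of *Sparcl1* against 1633 to 2139 in the other mTEClo libraries.

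**Figure D1:**
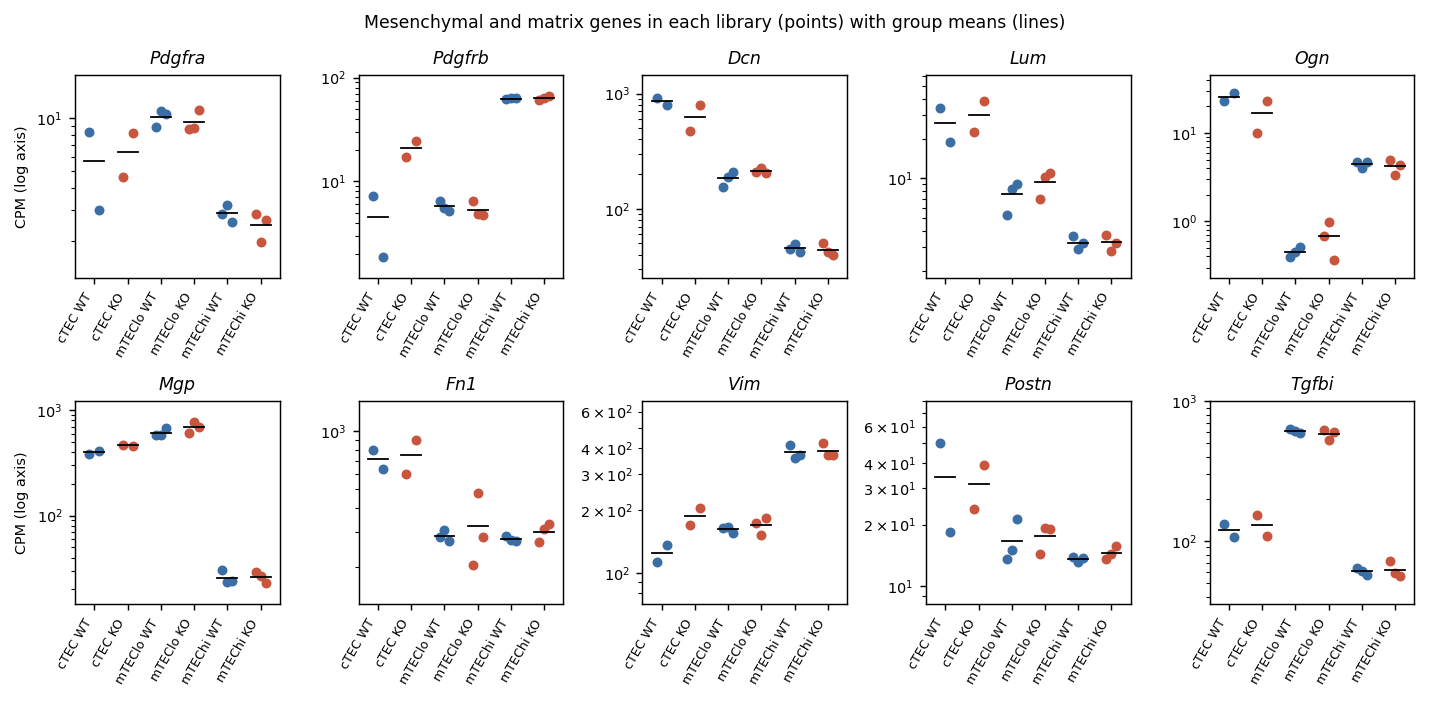
Level in CPM (log axis) of the 10 genes in each of the 16 libraries, 1 panel per gene, with WT libraries in blue, KO libraries in red and a bar at each group mean. *Dcn*, *Lum* and *Ogn* are highest in cTEC, *Mgp* and *Tgfbi* in mTEClo, and *Pdgfrb* and *Vim* in mTEChi.

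The 10 genes did not share 1 order of populations. Levels are given in CPM, a gene's counts relative to the TMM-scaled total of its library, which compares libraries for 1 gene and not genes with each other. Averaged over both genotypes, *Dcn*, *Lum*, *Ogn*, *Fn1* and *Postn* were highest in cTEC, *Pdgfra*, *Mgp* and *Tgfbi* in mTEClo, and *Pdgfrb* and *Vim* in mTEChi. These are orders of means, and the libraries of the highest and the next population overlapped for *Postn*; the tests of each difference follow by gene. Since these are bulk libraries, more cells of a kind and more RNA per cell cannot be told apart in any of these values.

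Levels per transcript length, from the authors' RPKM values, spanned a wide range. In WT cTEC *Mgp* had a mean of 452 RPKM and *Dcn* 294.5 RPKM, above 99.8% and 99.6% of all genes. *Pdgfra* and *Pdgfrb* lay at 0.608 and 0.605 RPKM there, both at the 42.8th percentile. *Mgp* was also the highest of the 10 in WT mTEClo, with 729 RPKM, followed by *Tgfbi* with 173 RPKM. In WT mTEChi *Vim* led with 169 RPKM, *Mgp* had 33.7 RPKM, and *Pdgfra* was the lowest with 0.360 RPKM. *Pdgfrb* stood at 9.68 RPKM in WT mTEChi, above *Postn*, *Ogn* and *Lum*. Thus the genes that were near the top of all transcripts were secreted matrix proteins and vimentin, and the receptors were low except for *Pdgfrb* in mTEChi.

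The 2 receptor genes had opposite patterns. *Pdgfra* (chr5:75152291-75198204 on mm10, plus strand, 23 exons) encodes the receptor that marks most fibroblasts. Its level was 8.98, 11.1 and 10.5 CPM in the WT mTEClo libraries and 8.69, 8.81 and 11.1 CPM in the KO mTEClo libraries. In mTEChi it was 2.83, 3.21 and 2.54 CPM in WT and 2.84, 1.95 and 2.62 CPM in KO. All 6 mTEClo libraries were above all 6 mTEChi libraries, and the log2 fold change of WT mTEChi against WT mTEClo was -1.84 (SE 0.15, adjusted p = 3.13e-07 by edgeR). In cTEC *Pdgfra* was 8.36 and 2.99 CPM in WT and 4.65 and 8.26 CPM in KO, so that the libraries of 1 group differed more than the genotypes did. WT cTEC passed the test neither against mTEClo (log2 fold change -0.86, SE 0.37, adjusted p = 0.0968) nor against mTEChi (0.93, SE 0.44, adjusted p = 0.0932). Both depended on 1 library: without cTEC WT replicate 1 the first became -1.79 and passed, and the second became -0.03, while without cTEC WT replicate 2 the second became 1.49 and passed.

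*Pdgfrb* (chr18:61045150-61085067, plus strand, 23 exons) encodes the receptor that marks pericytes and vascular smooth muscle. It was 62.1, 63.3 and 63.0 CPM in WT mTEChi and 60.5, 64.3 and 67.0 CPM in KO mTEChi. The mTEClo libraries held 6.51, 5.56 and 5.18 CPM in WT and 6.43, 4.81 and 4.71 CPM in KO. Each mTEChi library was thus far above each mTEClo library, with a 10.8-fold difference in WT (log2 fold change 3.43, SE 0.10, adjusted p = 3.40e-11, edgeR) and an 11.98-fold difference in KO. In cTEC it was 7.30 and 1.87 CPM in WT, from 638 and 163 counts, and 17.1 and 24.7 CPM in KO, from 1280 and 1603 counts. WT cTEC was below WT mTEChi (log2 fold change -3.83, SE 0.53, adjusted p = 0.000662), a value of -5.15 without cTEC WT replicate 1 and -3.16 without replicate 2. Against WT mTEClo the difference of WT cTEC was -0.34 (SE 0.47, adjusted p = 0.600), and it became -1.64 and passed without replicate 1 but 0.33 without replicate 2.

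**Figure D2:**
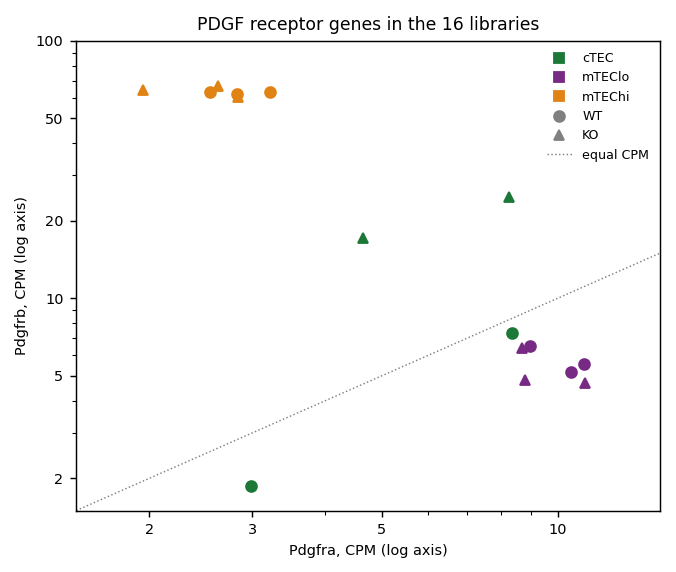
*Pdgfra* against *Pdgfrb* in CPM (both log axes) for the 16 libraries, with colour for the population, circles for WT, triangles for KO and a dotted line at equal CPM. The mTEChi libraries lie at the upper left with 60.5 to 67.0 CPM of *Pdgfrb*, mTEClo and WT cTEC below the line, and the 2 KO cTEC libraries above it.

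The ratio of *Pdgfrb* to *Pdgfra*, chosen after its values were seen, separated the groups. In RPKM it ranged from 0.523 to 0.925 in the 6 mTEClo libraries, from 0.783 to 1.07 in WT cTEC, from 3.95 to 4.53 in KO cTEC and from 23.9 to 40.7 in mTEChi. The ranges of mTEClo and WT cTEC overlapped, and those of KO cTEC and mTEChi stood clear of them and of each other.

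Of the 4 PDGF ligand genes, 2 were higher and 1 lower in WT cTEC than in WT mTEClo, where 20.9% and 24.1% of all genes were. Against WT mTEChi 3 were higher and 1 lower, where 30.8% and 43.5% of all genes were. *Pdgfa*, a ligand of the alpha receptor, had a mean of 113 ± 1.57 CPM (SD, n = 2) in WT cTEC, 83.04 ± 0.986 CPM (n = 3) in WT mTEClo and 35.3 ± 2.83 CPM (n = 3) in WT mTEChi. *Pdgfb*, which binds both receptors, went the other way, with 3.74 ± 0.171 CPM in WT cTEC, 16.2 ± 1.78 CPM in WT mTEClo and 47.0 ± 3.01 CPM in WT mTEChi. Its log2 fold change of WT cTEC against WT mTEChi was -3.72 (SE 0.11, adjusted p = 1.04e-06, edgeR). *Pdgfc* and *Pdgfd* were both higher in WT cTEC than in WT mTEChi, by 3.30 and 2.12 on the log2 scale. *Pdgfb* and *Pdgfrb* thus had their highest levels in the same population, mTEChi, where *Pdgfa*, *Pdgfc* and *Pdgfd* had their lowest.

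The 3 proteoglycan genes were all highest in cTEC but differed in how they fell off. *Dcn* (chr10:97479500-97518162, plus strand, 8 exons) encodes decorin, which binds collagen fibrils and growth factors. It was 916 and 801 CPM in WT cTEC and 471 and 793 CPM in KO cTEC, against 155, 190.2 and 209 CPM in WT mTEClo and 208, 224 and 203 CPM in KO mTEClo. In mTEChi it was 44.5, 49.4 and 42.2 CPM in WT and 50.5, 41.9 and 40.0 CPM in KO. No library of 1 population overlapped with those of another, and WT cTEC was 4.61-fold above WT mTEClo (log2 fold change 2.21, SE 0.13, adjusted p = 4.77e-06, edgeR) and 18.1-fold above WT mTEChi.

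*Lum* (chr10:97565501-97572703, plus strand, 3 exons), the next gene on the chromosome, encodes lumican and kept the same order at a lower level. It was 34.1 and 18.8 CPM in WT cTEC and 22.5 and 38.3 CPM in KO cTEC. The mTEClo libraries ranged from 5.24 to 11.1 CPM and the mTEChi libraries from 2.81 to 3.75 CPM. The log2 fold change of WT cTEC was 1.795 (SE 0.29, adjusted p = 0.00136) against WT mTEClo and 2.96 (SE 0.28, adjusted p = 0.000102) against WT mTEChi in the edgeR fits. The populations did not overlap, although the cTEC libraries spread widely within each genotype.

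*Ogn* (chr13:49608071-49624500, plus strand, 7 exons), encoding osteoglycin, had the largest range of the 10. It was 22.7 and 28.6 CPM in WT cTEC and 9.95 and 23.2 CPM in KO cTEC. In mTEChi it was 4.65, 3.98 and 4.67 CPM in WT and 4.99, 3.35 and 4.38 CPM in KO. The mTEClo libraries held only 0.396, 0.453 and 0.514 CPM in WT, from 36, 44 and 47 counts, and 0.686, 0.973 and 0.365 CPM in KO. WT cTEC was 55.8-fold above WT mTEClo (log2 fold change 5.80, SE 0.19, adjusted p = 5.38e-07), and WT mTEChi was 9.63-fold above WT mTEClo (3.27, SE 0.23, adjusted p = 8.47e-08, edgeR). *Ogn* thus had its lowest level in mTEClo, where *Dcn* and *Lum* were intermediate. As a consequence the *Ogn* to *Lum* ratio, also chosen after its values were seen, was 0.033 to 0.0983 in CPM over the mTEClo libraries and 1.19 to 1.44 over the mTEChi libraries, with 0.443 to 1.52 in cTEC.

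The other proteoglycans of the family did not share 1 pattern either. Of 11 tested, 8 were higher and 2 lower in WT cTEC than in WT mTEClo, where 20.9% and 24.1% of all genes were. Of 14 tested against WT mTEChi, 6 were higher and 7 lower, where 30.8% and 43.5% of all genes were. *Prelp* and *Fmod*, both collagen-binding, followed *Dcn*: *Prelp* was 478 ± 15.2 CPM (SD, n = 2) in WT cTEC, 54.0 ± 4.81 CPM (n = 3) in WT mTEClo and 9.45 ± 1.47 CPM (n = 3) in WT mTEChi. *Fmod*, encoding fibromodulin, was 329 ± 15.2, 101 ± 5.70 and 6.07 ± 0.308 CPM in the same order. Genes that lie beside the members on the chromosome were highest in mTEChi instead. *Kera* and *Epyc*, which follow *Lum* on chromosome 10, had their highest means in mTEChi, with 3.99 ± 0.285 CPM and 26.8 ± 3.40 CPM in WT, against 0.103 and 16.4 CPM in WT cTEC. *Aspn*, *Omd* and *Ecm2*, which precede *Ogn* on chromosome 13, also had their highest means in mTEChi. *Aspn* was 21.2 ± 3.01 CPM in WT mTEChi and 0.953 ± 0.635 CPM in WT cTEC (log2 fold change of cTEC -4.55, SE 0.42, adjusted p = 0.000100, edgeR), while *Ogn* was higher in cTEC. *Ecm2* did not pass in that comparison (-0.78, SE 0.31, adjusted p = 0.0567). Against WT mTEClo, *Aspn*, *Ecm2* and *Epyc* were higher in WT cTEC, as the members were, by 2.68, 1.05 and 0.60 on the log2 scale. The libraries were made with a kit that does not mark strand, and *Aspn* and *Epyc* share exonic bases with *Cenpp* and *Gm10754*, so their counts are less certain.

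*Mgp* (chr6:136872435-136875805, minus strand, 4 exons) encodes matrix Gla protein, an inhibitor of calcification. It was 385 and 412 CPM in WT cTEC, 472 and 461 CPM in KO cTEC, 587, 581 and 676 CPM in WT mTEClo and 612, 768 and 687 CPM in KO mTEClo. The mTEChi libraries held 22.98 to 30.2 CPM. The lowest mTEClo library was above the highest cTEC library, and all mTEChi libraries were far below both. WT mTEChi was 24.0-fold below WT mTEClo (log2 fold change -4.59, SE 0.11, adjusted p = 1.18e-11), and WT cTEC was below WT mTEClo by a smaller margin (-0.64, SE 0.09, adjusted p = 0.000691, edgeR).

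*Tgfbi* (chr13:56609603-56639339, plus strand, 17 exons) encodes a secreted integrin-binding protein that TGF-beta induces. It was 632, 619 and 591 CPM in WT mTEClo and 628, 532 and 606 CPM in KO mTEClo. It was 132 and 107 CPM in WT cTEC, 154 and 108 CPM in KO cTEC and 56.3 to 71.7 CPM in the mTEChi libraries. None of these ranges overlapped, and WT mTEClo was 5.18-fold above WT cTEC and 10.2-fold above WT mTEChi (log2 fold change of WT mTEChi -3.35, SE 0.07, adjusted p = 6.27e-12, edgeR).

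*Postn* (chr3:54361107-54391041, plus strand, 22 exons) encodes periostin, a relative of the TGFBI protein, and had the smallest range. It was 50.03 and 18.3 CPM in WT cTEC, 23.7 and 39.0 CPM in KO cTEC, 13.7 to 21.2 CPM in mTEClo and 13.1 to 15.7 CPM in mTEChi. The cTEC and mTEClo ranges overlapped, as did those of mTEClo and mTEChi. WT cTEC passed the test against WT mTEClo (log2 fold change 1.03, SE 0.36, adjusted p = 0.0494, edgeR), but the value was 0.12 (adjusted p = 0.576) without cTEC WT replicate 1, and the call was lost with DESeq2 (adjusted p = 0.120) and without any of the 3 WT mTEClo libraries. Against WT mTEChi it was 1.28 (adjusted p = 0.0194), 0.35 without cTEC WT replicate 1, and not called without any of the 3 WT mTEChi libraries. The ratio of *Tgfbi* to *Postn* in RPKM was 34.2 to 57.5 in mTEClo, against 3.31 to 8.17 in cTEC and 4.49 to 6.53 in mTEChi.

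*Fn1* (chr1:71585473-71653234, minus strand, 46 exons) encodes fibronectin, on which other matrix proteins assemble. It was 802 and 637 CPM in WT cTEC and 603 and 895 CPM in KO cTEC, above all mTEC libraries. WT mTEClo held 284, 307 and 271 CPM and WT mTEChi 286, 275 and 269.5 CPM, with overlapping ranges, and KO mTEChi held 267 to 330.2 CPM. In KO mTEClo it was 204, 480.0 and 285 CPM, the high value being that of replicate 2. WT cTEC was 2.48-fold above WT mTEClo (log2 fold change 1.31, SE 0.11, adjusted p = 3.32e-05) and 2.49-fold above WT mTEChi, whereas WT mTEChi against WT mTEClo was -0.07 (SE 0.07, adjusted p = 0.345, edgeR). An exon of *Fn1* overlaps the annotated gene *Apol7d*, which had 0 to 41 counts per library.

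*Vim* (chr2:13574311-13582826, plus strand, 9 exons) encodes vimentin, the intermediate filament protein of mesenchymal cells that many blood and some epithelial cells also make. It was 416, 357 and 369 CPM in WT mTEChi and 423, 372 and 369.9 CPM in KO mTEChi, above every other library. WT mTEClo held 164, 167 and 156 CPM, KO mTEClo 174, 152 and 184 CPM, WT cTEC 113 and 135 CPM, and KO cTEC 170.3 and 205 CPM. WT mTEChi was 2.32-fold above WT mTEClo (log2 fold change 1.22, SE 0.07, adjusted p = 1.54e-08, edgeR) and WT cTEC below WT mTEChi (-1.68, SE 0.11, adjusted p = 1.78e-05). WT cTEC was also below WT mTEClo (-0.40, SE 0.09, adjusted p = 0.00821), a call lost without WT mTEClo replicate 2 (adjusted p = 0.0518).

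Transcription factors of the epithelial-mesenchymal transition were fixed as a list of 8 beside *Vim*. Their summed level was 328 to 369 CPM in WT cTEC, 268 to 279 CPM in WT mTEClo and 76.8 to 82.2 CPM in WT mTEChi, where *Vim* was highest. In WT mTEChi against WT mTEClo, 3 of 8 were higher, where 43% of all genes were, and 4 lower, where 37.9% were. *Snai2*, a repressor of *Cdh1*, was lower by the same comparison (log2 fold change -2.79, SE 0.06, adjusted p = 1.09e-11), as was *Tcf4* (-1.76). *Zeb2* was higher in WT cTEC than in WT mTEClo by 2.27 (SE 0.15, adjusted p = 1.10e-05, edgeR).

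RefSeq promoter sequences (GRCm38.p6) matched 5 of the 10 genes, *Ogn*, *Pdgfra*, *Postn*, *Tgfbi* and *Vim*, in 6 windows of 300 bases. The 60 bases just upstream of the start used in that promoter set are shown for 3 genes. They are the gene of the largest range, *Ogn*, and *Pdgfra* and *Postn*, whose levels varied together within groups as described further on. For *Ogn* and *Pdgfra* this start lies upstream of the gene start given above. All 3 lie on the plus strand and run 5′ to 3′, and capitals mark the motif TATAAA.
Ogn chr13:49607955-49608014: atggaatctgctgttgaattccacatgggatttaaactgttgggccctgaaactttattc
Pdgfra chr5:75152191-75152250: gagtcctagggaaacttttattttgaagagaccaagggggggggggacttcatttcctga
Postn chr3:54361047-54361106: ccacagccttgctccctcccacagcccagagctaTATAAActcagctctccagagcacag
The motif starts 26 bases before the *Postn* start shown. It is missing on both strands from the *Pdgfra* window and from the other *Postn* window (chr3:54359017-54359316). *Ogn* has it only 227 bases upstream, outside the bases shown. It was found on either strand in 13.6% of 32851 promoter windows of the same length. A match describes the letters and not a site in use. *Pdgfra* differs in it from the *Postn* window shown and not from the other *Postn* window.

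Members were next counted over whole comparisons, a gene being called at an adjusted p under 0.05 in the edgeR quasi-likelihood test over all genes tested. In WT cTEC against WT mTEClo, 5 of the 10 were higher, where 20.9% of all genes were, and 3 were lower, where 24.1% were. The median log2 fold change of the 10 was 0.35 against -0.02 over all genes. In WT cTEC against WT mTEChi, 7 were higher (30.8% of all genes) and 2 lower (43.5%), with a median of 1.30 against -0.24. In WT mTEChi against WT mTEClo, 3 were higher (43% of all genes) and 5 lower (37.9%), with a median of -0.76 against 0.06. Large shares of all genes differed between these populations, so that a call alone sets none of the 10 apart, and the sizes and orders above carry the description.

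The KO libraries gave a largely parallel picture. In KO cTEC against KO mTEClo, *Dcn*, *Lum*, *Ogn* and *Pdgfrb* were called higher (4 of 10, where 3.31% of all genes were) and *Tgfbi* lower (1 of 10, where 2.86% were). These calls depended on every KO mTEClo library: without any of them, 0 to 1 of the 10 passed, with log2 fold changes that stayed near those of the full fit, such as 1.54 to 1.61 for *Dcn* against 1.57. In KO cTEC against KO mTEChi, 7 were higher (20.7% of all genes) and 2 lower (26%), with *Pdgfra* not called (1.29, adjusted p = 0.0553). *Ogn* and *Postn* lost that call without any of the 3 KO mTEChi libraries, and *Tgfbi* without replicate 2 or 3. In KO mTEChi against KO mTEClo, 3 were higher (42.2%) and 5 lower (36.2%). The WT and KO libraries put 8 of the 10 on the same side of 0 in cTEC against mTEClo, and all 10 in both other contrasts. The 2 exceptions were *Pdgfrb*, at -0.34 in WT and 1.97 in KO, and *Vim*, at -0.40 in WT and 0.14 in KO.

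**Figure D3:**
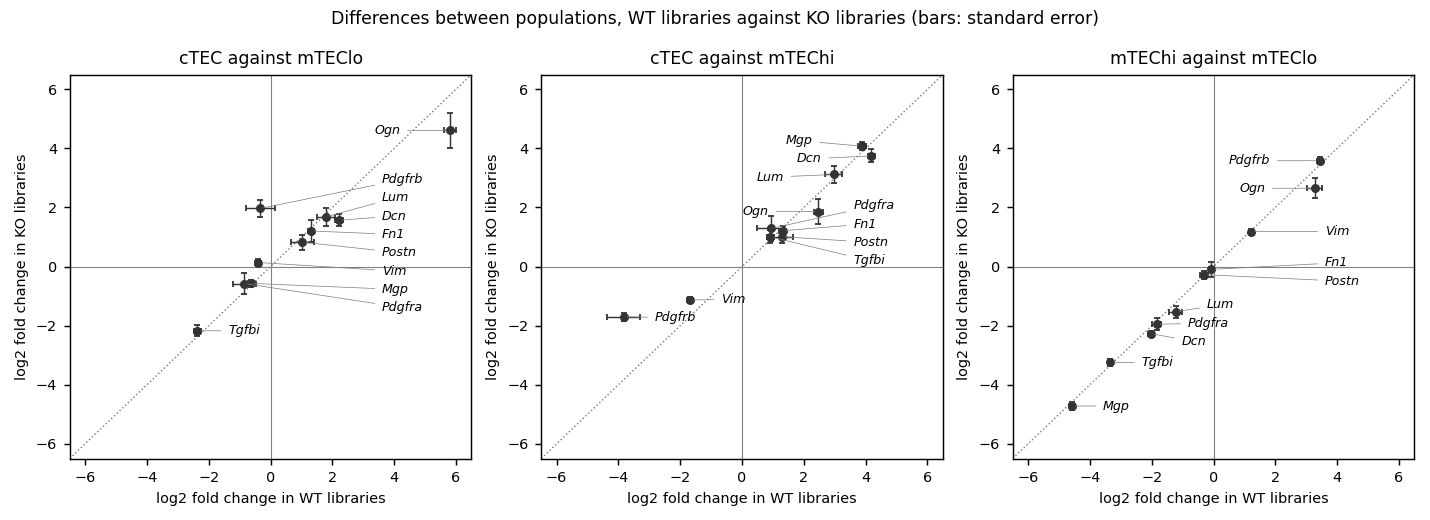
Log2 fold change of each gene between 2 populations in WT libraries (horizontal axis) and in KO libraries (vertical axis), with standard errors as bars and a dotted line at equality. Most genes lie near the line, and *Pdgfrb* lies off it in both panels that involve cTEC. *Ogn* has a smaller value in KO than in WT libraries in every panel, such as 4.61 against 5.80 in cTEC against mTEClo.

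The effect of the *Psmb11* deletion on the 10 genes was tested in each population. None of the 10 was called in any of the 3 by edgeR, nor were other genes in number. Of 16419 genes tested 0% were called in cTEC, with 0.00586% called in mTEClo and 0.0051% in mTEChi. The called gene was *Psmb11* itself in both mTEC populations. In cTEC the deleted gene *Psmb11* was not called, so a missing call there does not show that a gene was unchanged. Of simulated 2-fold changes, the test recovered 35% in cTEC, 66% in mTEClo and 81% in mTEChi. In cTEC 2103 genes had an unadjusted p under 0.05, *Pdgfrb* and *Vim* among them, and the DESeq2 Wald test called 815 genes and limma-voom with library weights 220. The 10 had 7 log2 fold changes above 0 and 3 below in cTEC, with a median of 0.17 against 0.01 over all genes. In mTEClo and mTEChi the members' medians were 0.11 and 0.01.

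**Figure D4:**
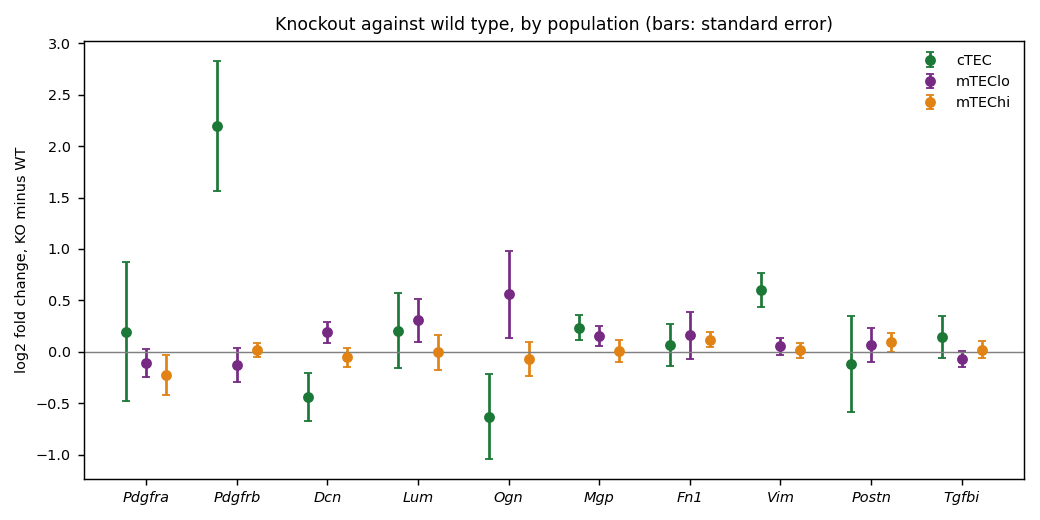
Log2 fold change of KO against WT for each gene in cTEC (green), mTEClo (purple) and mTEChi (orange), with standard errors as bars. *Pdgfrb* in cTEC has the largest value, 2.20, and the mTEClo and mTEChi points stay within 0.56 of 0.

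The largest difference was that of *Pdgfrb* in cTEC. Both KO libraries, at 17.1 and 24.7 CPM, were above both WT libraries, at 7.30 and 1.87 CPM, and the mean was 4.59-fold higher. The log2 fold change was 2.20 (SE 0.63), which did not pass over all genes with edgeR (adjusted p = 0.245). It passed with no filter on low counts (adjusted p = 0.0400), with DESeq2 (0.0251), with limma-voom (0.0158) and when all 16 libraries were fitted together (0.00215). It also passed without cTEC WT replicate 1 (3.47) and without cTEC KO replicate 1 (2.42), and did not without the other cTEC libraries. In mTEClo and mTEChi the log2 fold changes were -0.13 (SE 0.16) and 0.02 (SE 0.07). The difference between the effects was 2.32 (SE 0.65, adjusted p = 0.0731) for cTEC against mTEClo and 2.17 (SE 0.60, adjusted p = 0.0790) for cTEC against mTEChi, neither past the threshold with edgeR.

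Several marker lists also had higher sums in the KO than in the WT cTEC libraries and others lower, although no gene of any list was called there. The matricellular sum was lower, at 4771 to 5287 CPM in WT and 3979 to 4452 CPM in KO, with 11 of 18 genes above 0. The transition factor sum was 328 to 369 CPM in WT and 284 to 305 CPM in KO. The further proteoglycans overlapped, at 962 to 992.5 CPM in WT and 724 to 1467 CPM in KO. The summed level of 25 further fibroblast markers was 2307 to 2489 CPM in WT and 2814 to 3206 CPM in KO cTEC, with 19 of 25 genes above 0 and a median of 0.62 on the log2 scale, against 0.01 over all genes. The summed level of 12 pericyte and smooth muscle markers was 655 to 800.3 CPM in WT and 1012 to 1171 CPM in KO cTEC, and 10 of its 11 tested genes were above 0, with a median of 0.65. The sum of 10 medullary markers was 855 to 858 CPM in WT and 1358 to 1417 CPM in KO, with all 9 tested genes above 0. The part of these cells in the result was not tested. *Aire*, a medullary regulator of tissue-restricted genes, was 14.03 and 11.2 CPM in WT cTEC and 107 and 48.4 CPM in KO cTEC. KO replicate 1 was the higher of the pair for *Aire* and replicate 2 the higher for *Pdgfrb*. *Btnl1*, *Apoa4* and *Il2ra*, also highest in mTEChi, were higher in replicate 2 too (11.8 against 10.0, 36.1 against 29.6 and 77.5 against 66.2 CPM). These genes were picked for their likeness to *Pdgfrb* over the same libraries. The macrophage and dendritic cell sum was 73.9 to 130.1 CPM in WT and 135 to 155 CPM in KO cTEC.

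*Vim* in cTEC was 113 and 135 CPM in WT and 170.3 and 205 CPM in KO, without overlap. Its log2 fold change was 0.60 (SE 0.16, adjusted p = 0.221, edgeR), which passed with DESeq2 (0.0145), with all libraries fitted together (0.00411) and without cTEC KO replicate 1 (0.0207). The effect in cTEC exceeded that in mTEClo by 0.54 (SE 0.17, adjusted p = 0.0960) and that in mTEChi by 0.57 (SE 0.17, adjusted p = 0.103). *Dcn* lay on the other side of 0, at -0.44 (SE 0.23, adjusted p = 0.499), and *Ogn* at -0.63 (SE 0.41, adjusted p = 0.591). Both rested on the lower level of KO replicate 1: without KO replicate 2 they were -0.83 and -1.34 and passed (adjusted p = 0.0106 and 0.0201). The sum of 10 cortical markers, *Psmb11* among them, was 6861 to 7907 CPM in WT cTEC and 4233 to 5630 CPM in KO cTEC, and its part in these values was not tested. *Mgp* had 385 and 412 CPM in WT and 472 and 461 CPM in KO cTEC, or 0.24 on the log2 scale (SE 0.12, adjusted p = 0.496).

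In mTEClo the largest value was that of *Ogn*, 0.56 (SE 0.43, adjusted p = 0.623), a gene with under 1 CPM there. *Fn1* in mTEClo was 0.16 (SE 0.23) and became -0.24 without KO replicate 2. In mTEChi the largest was *Pdgfra*, -0.22 (SE 0.19, adjusted p = 0.999). All 10 genes overlapped between genotypes in both mTEC populations, while in cTEC *Pdgfrb*, *Vim*, *Dcn* and *Mgp* did not. Each genotype had only 2 libraries there, and none of the 4 was called, nor was any of the genes tested (0%). Ranges of fewer libraries part more easily, and the share of all genes without overlap was not counted. The count therefore sets neither these genes nor cTEC apart.

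Lists of related genes put these values in context. Of 25 further fibroblast markers, all 25 had counts in every group, and their summed level was 2307 to 2489 CPM in WT cTEC, 3146 to 3308 CPM in WT mTEClo and 710 to 759 CPM in WT mTEChi. In WT cTEC against WT mTEClo 10 of 24 tested were higher (20.9% of all genes) and 9 lower (24.1%). The collagen genes split, with *Col1a2* higher (log2 fold change 2.69, SE 0.22, adjusted p = 3.56e-05) and *Col6a2* lower (-1.74, SE 0.08, adjusted p = 1.53e-06). Against WT mTEChi 14 of 25 were higher in WT cTEC (30.8% of all genes) and 7 lower (43.5%). Among the higher ones were *Lox*, which crosslinks collagen (4.04), *Efemp2* (4.29), *Sparc* (2.73) and *Fstl1* (2.46). In WT mTEChi against WT mTEClo 8 of 24 were higher (43% of all genes) and 15 lower (37.9%), with a median of -1.41 against 0.06 over all genes. The fibroblast markers thus had several orders of populations: *Sparc* was 653 ± 7.14 CPM (SD, n = 2) in WT cTEC, 395 ± 21.3 CPM (n = 3) in WT mTEClo and 94.2 ± 12.9 CPM (n = 3) in WT mTEChi, and *Col6a2* was 443 ± 27.1, 1471 ± 49.9 and 70.6 ± 8.15 CPM in the same order.

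The pericyte and smooth muscle markers were mixed in relation to *Pdgfrb*. Their sum was 655 to 800.3 CPM in WT cTEC, 1978 to 2347 CPM in WT mTEClo and 830.4 to 839.9 CPM in WT mTEChi, whereas *Pdgfrb* was highest in mTEChi. Of 12 tested in WT mTEChi against WT mTEClo, 6 were higher and 5 lower, near the shares of all genes (43% and 37.9%). In WT cTEC against WT mTEChi, 6 of 12 were lower (43.5% of all genes), the direction of *Pdgfrb*, and 4 higher (30.8%). The median log2 fold change there was -1.78 against -0.24 over all genes. *Acta2*, smooth muscle actin, was 667 ± 95.5 CPM (SD, n = 3) in WT mTEClo and 56.2 ± 2.04 CPM (n = 3) in WT mTEChi, which is -3.58 on the log2 scale (SE 0.10, adjusted p = 4.40e-11, edgeR). *Tagln*, also of smooth muscle, differed by -4.20. *Rgs5*, a pericyte gene, was 248 ± 12.7 CPM in WT mTEClo, 271 ± 9.03 CPM in WT mTEChi and 28.7 ± 13.5 CPM in WT cTEC. *Cspg4*, which encodes the pericyte proteoglycan NG2, was 2.63 ± 0.145 CPM in WT mTEClo and 19.6 ± 3.24 CPM in WT mTEChi. It was thus higher in mTEChi than in mTEClo, as *Pdgfrb* was.

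**Figure D5:**
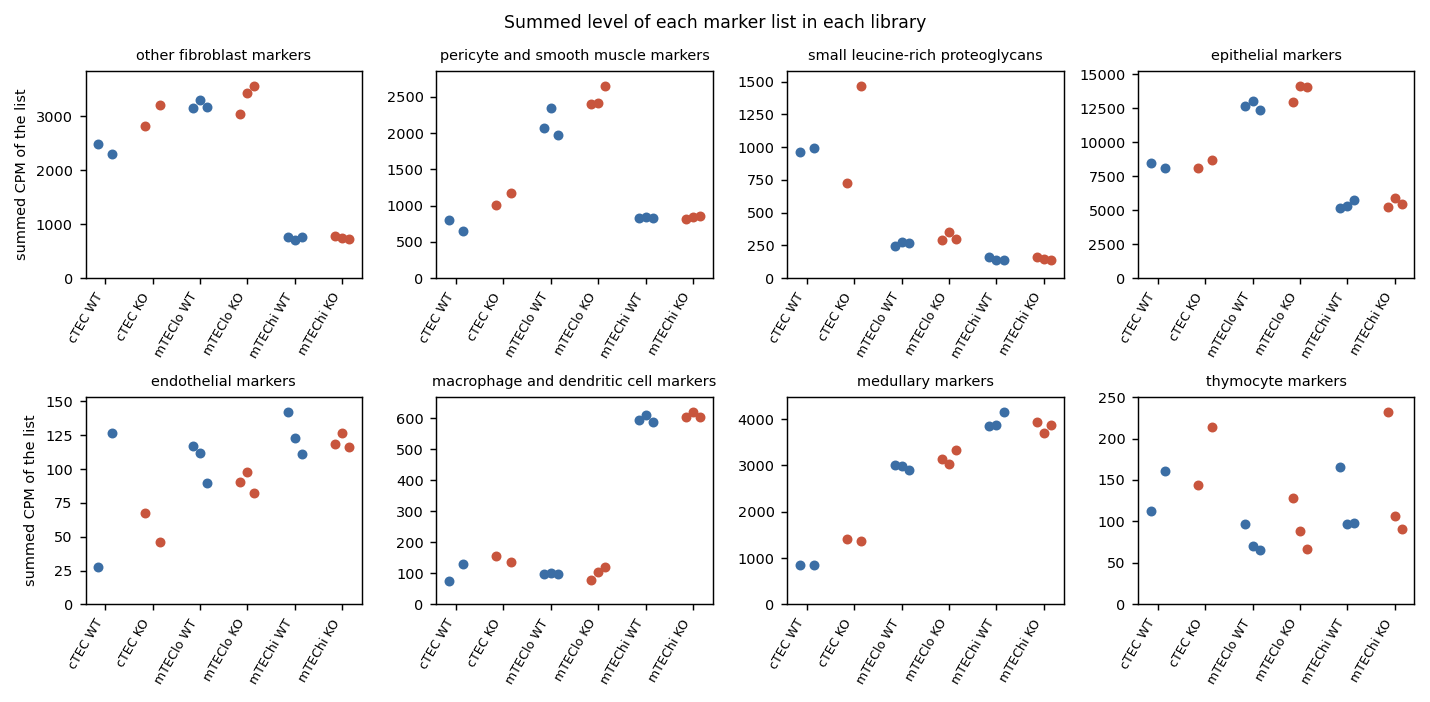
Summed CPM (linear axis) of marker lists in each of the 16 libraries, 1 panel per list, with WT in blue and KO in red. The cortical, PDGF ligand, matricellular and transition factor lists are not drawn. The fibroblast and pericyte sums are highest in mTEClo, the macrophage and dendritic cell sum in mTEChi, and the epithelial sum lies between 5167 and 14150 CPM.

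Markers of blood and endothelial cells were summed in the same way. The sort for EpCAM-positive cells was set to leave out these cells, and equally fibroblasts and pericytes that lack EpCAM. The lists hold different genes, so the sums compare libraries within a list and not lists with each other. Macrophage and dendritic cell markers summed to 588 to 609 CPM in WT mTEChi against 98.6 to 101 CPM in WT mTEClo and 73.9 to 130.1 CPM in WT cTEC. Of 13 tested, 12 were higher in WT mTEChi than in WT mTEClo, where 43% of all genes were. *Vim* and *Pdgfrb* were also highest in mTEChi, and the part of these cells in that result was not tested. Endothelial markers summed to 89.4 to 117 CPM in WT mTEClo and 111 to 142 CPM in WT mTEChi, and to 27.3 and 126.5 CPM in the 2 WT cTEC libraries. Thymocyte markers summed to 65.8 to 97.2 CPM in WT mTEClo, 96.8 to 166 CPM in WT mTEChi and 112 to 161 CPM in WT cTEC. The epithelial sum was 8142 to 8513 CPM in WT cTEC, 12390 to 13030 CPM in WT mTEClo and 5167 to 5736 CPM in WT mTEChi.

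Of 18 matricellular and fibre-assembly genes, 6 were higher and 5 lower in WT cTEC than in WT mTEClo, where 20.9% and 24.1% of all genes were. Against WT mTEChi 8 were higher and 6 lower, where 30.8% and 43.5% of all genes were. *Tnc*, encoding tenascin-C, was 2676 ± 196 CPM (SD, n = 2) in WT cTEC, 2080 ± 55.4 CPM (n = 3) in WT mTEClo and 1513 ± 99.5 CPM (n = 3) in WT mTEChi. *Thbs2*, encoding a thrombospondin, was higher in WT cTEC than in WT mTEChi by 2.97 (SE 0.08, adjusted p = 7.89e-07) and *Cyr61*, a matricellular gene, by 3.78 (edgeR).

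The ratio of *Dcn* to the fibrillar collagen gene *Col1a2*, chosen after its values were seen, was 75.8 to 117 in RPKM over the 6 mTEClo libraries, 67.6 to 86.3 in WT cTEC, 32.7 to 55.4 in KO cTEC and 5.99 to 9.65 in mTEChi. That of *Dcn* to *Col3a1* was 11.8 to 14.7 in WT cTEC and 4.31 to 6.16 in KO cTEC, with 4.55 to 7.78 in mTEClo and 4.08 to 6.11 in mTEChi. *Dcn* therefore did not keep a fixed proportion to *Col1a2* across the groups. Its ratio to *Col3a1* overlapped between KO cTEC, mTEClo and mTEChi, with WT cTEC above them. No other member was set against these collagens.

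Within groups, some members deviated from the group mean together. Over the 16 libraries, after the group mean of log2(CPM + 0.5) was subtracted, Pearson's r was 0.849 for *Pdgfra* and *Postn* (Spearman's rho 0.644), 0.844 for *Lum* and *Postn* (0.812), 0.808 for *Pdgfra* and *Lum* (0.844) and 0.714 for *Dcn* and *Lum* (0.691). Without the 2 libraries farthest from the median, the first 3 were 0.599, 0.816 and 0.753. For *Pdgfra* and *Pdgfrb* r was 0.775 but rho 0.341, and r was 0.231 without the 2 WT cTEC libraries. *Lum* also deviated with the summed fibroblast list (r 0.814, rho 0.785) and nearly as much with the cortical markers (r 0.793, rho 0.741). With the pericyte list, r was 0.781 for *Pdgfra*, 0.641 for *Pdgfrb* and 0.612 for *Postn* (rho 0.712, 0.521 and 0.518). The other members ranged there from -0.34 (*Mgp*) to 0.623 (*Lum*). With the endothelial list, r was -0.88, -0.892 and -0.902 for *Pdgfra*, *Pdgfrb* and *Postn* (rho -0.726, -0.435 and -0.738). *Dcn* deviated with the cortical markers (r 0.816, rho 0.685), with r 0.603 without the 2 KO cTEC libraries. Its r was 0.828 with the further proteoglycans and 0.535 with the fibroblast list. The points share libraries and depth, and these values are a description only.

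Over the 16 libraries and 15965 genes of at least 1 CPM, the 3 genes most like each member in log2 CPM were listed. How often markers of any kind enter so short a list was not counted, and the source of the RNA was not tested. The closest to *Dcn* were *Pax1* (r = 0.997), *Aldh6a1* and *Vldlr*, and to *Pdgfrb* they were *Btnl1* (r = 0.996), *Apoa4* and *Il2ra*. *Btnl1*, a butyrophilin-like gene of epithelia, was 1.41 and 0.0115 CPM in WT cTEC, 10.0 and 11.8 CPM in KO cTEC and 38.3 to 47.0 CPM in mTEChi, an order like that of *Pdgfrb*. The closest to *Mgp* were *C1ra* (r = 0.998), *Pxdc1* and *Ddit4l*, to *Tgfbi* *Pthlh* (r = 0.987), *Robo1* and *S1pr3*, and to *Vim* *Gtpbp1* (r = 0.992), *Tubb4a* and *Mrpl38*. *Ogn* was closest to *Nqo1* (r = 0.990), *Abi3bp* and *Bambi*, *Lum* to *Slc2a9* (r = 0.986), *Fbln7* and *Trpm3*, and *Fn1* to *Tgm2* (r = 0.975), *Col4a6* and *Igf2bp2*. *Pdgfra* was closest to *L3mbtl3* (r = 0.967), *Esr1* and *Mex3d*. *Postn* had the least close neighbours, *Tacr1* (r = 0.922), *Casc4* and *Hace1*. The population means enter each r, and the points share libraries.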

How the data were processed

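RNA-seq of 16 libraries of sorted thymic epithelial cells was analysed. The authors deposited counts per gene and RPKM values per gene. Build mm10 is named per the submitters' processing notes, which list HTSeq 0.5.4p1 and CASAVA 1.8.2 as tools, and the aligner and gene annotation are not given in the sources used here. The TruSeq kit that the labels' protocols name keeps no strand. Reads in no gene, 13.7% to 30.4% per library, stayed out of library sizes, as did 4 entries whose symbol stood more than once. The RPKM values of the authors were used for levels between genes and for ratios.

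Counts were tested with edgeR 4.0.16 in R 4.3.3 (TMM scaling, filterByExpr, quasi-likelihood test, Benjamini-Hochberg over all genes tested, threshold 0.05), fitted on the compared groups only and tested on simulated data. Differences between KO effects were interaction terms over 4 groups. CPM used TMM factors over all 16 libraries. The alternatives were RLE size factors, no filter on low counts, DESeq2 1.42.0, limma 3.58.1 (voom with a weight per library), a fit of all 16 libraries, a replicate block, and leaving out each library. Depth was 64753610 to 146707262 gene counts per library.

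All 10 members were named in every comparison, with up to 4 called genes of each list by p, or 2 of the highest mean CPM where none was called, chromosomal neighbours of *Dcn*, *Lum* and *Ogn*, and the 3 genes most alike. *Sparcl1* and *Nid1* in single libraries, *Apol7d*, *Cspg4* and the ratios were chosen after their values were seen. The members and lists were chosen with earlier results of these data known.

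Over 36 pairs of same-numbered libraries of different groups, the median correlation of their deviations was 0.01 (from -0.19 to 0.248). Between KO mTEClo and KO mTEChi the same-numbered pairs had 0.248, 0.093 and 0.192, against -0.198 to 0.029 for unlike numbers. Between WT mTEClo and WT mTEChi the same-numbered pairs had -0.019, -0.019 and -0.19. The labels state no pairing, and replicate numbers were not taken as pairs. Whether some groups are paired is not known.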

Additional observations from a re-analysis of the deposited data

Results flagged for a closer look

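No member's response to the deletion passed the test of a difference between populations, but 13 such differences passed for genes of the related lists, all with edgeR and with 2 cTEC libraries per genotype. Each value below is the log2 fold change of KO against WT in cTEC minus that in the other population. Against mTEClo, *Pdgfb* differed by 1.58, *Des* by 1.09, *Col6a2* by 0.73, *Col5a1* by 0.63 and *Smoc2* by -0.74. Against mTEChi, *Spp1* differed by 4.65, *Tnxb* by 2.20, *Pdgfb* by 1.71, *Col1a1* by 1.40, *Des* by 1.21, *Col6a2* by 0.66, *Col5a1* by 0.62 and *Smoc2* by -0.90. In the same 2 tests cortical markers were called lower (5 and 3 of 10), medullary markers higher (4 and 4 of 9 tested) and epithelial markers higher (2 and 2 of 10). Over all genes 831 of 17816 were called in the first of these tests and 1068 of 19986 in the second. The fits give 1 spread per gene to all 4 groups, although the cTEC libraries vary more than the mTEC libraries. *Pdgfb*, the ligand gene, had the most stable value and failed the threshold in 1 of 16 alternatives in each, with limma-voom (adjusted p = 0.104 and 0.0914). Against mTEChi, *Col5a1*, *Des* and *Smoc2* also failed in 1 of 16 each, and the other values failed in 6 to 11 of 16. *Pdgfb* was 3.74 ± 0.171 CPM (SD, n = 2) in WT cTEC and 12.2 ± 0.421 CPM (n = 2) in KO cTEC. *Spp1* rested on few reads in cTEC, with counts of 3 and 16 in WT and of 80 and 354 in KO.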

How the results depend on the processing

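The population contrasts of members kept their direction in all alternatives except 3 that 1 library reversed. Of 1148 member log2 fold changes under an alternative, 1016 kept direction and side of the threshold, 61 passed newly, 36 no longer passed and 35 reversed. Among 1707 values of other named genes, 132 no longer passed and none reversed. With 2 cTEC libraries per genotype, leaving 1 out leaves a lone library that is assumed to vary like the other groups. For KO against WT in cTEC, the genes called went from 0 to 382 with no filter on low counts, 815 with DESeq2, 4696 with 1 fit of all 16 libraries, 220 with voom and 717 with the replicate block, and to between 167 and 3526 without 1 library. The members called there were 1, 2, 2, 1 and 3 in the same order, and 0 to 2 without 1 library. In mTEClo the genes called were 21 with no filter, 318 with DESeq2, 0 with 1 fit and 62 with voom (1 to 2 without 1 library), and in mTEChi 7 with DESeq2, 0 with 1 fit and 3 with voom (1 to 2 without 1 library). KO cTEC against KO mTEClo had 1073 genes called, 3312 with DESeq2, 5991 with 1 fit and 3 to 9830 without 1 library, with 0 to 8 members called. KO cTEC against KO mTEChi had 2534 with the replicate block and 5905 to 16069 without 1 library. The difference of KO effects between cTEC and mTEClo had 831 genes called, 2262 with DESeq2, 2670 with 1 fit, 284 with voom, 390 with the block and 311 to 6551 without 1 library. Between cTEC and mTEChi it had 1068, then 3051, 2156, 214, 347 and 485 to 6997. Between mTEChi and mTEClo it had 2, then 16 with DESeq2, 0 with 1 fit, 0 with voom and 0 to 4 without 1 library. The cause of these shifts was not tested.

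Reversals of KO against WT lay near 0: in cTEC *Fn1* was -0.0048 with voom and *Postn* 0.0125 with the replicate block, and in mTEChi *Lum* was 0.0044 with 1 fit, and *Mgp* -0.0090, *Vim* -0.0131 and *Tgfbi* -0.0202 with voom. Without 1 library each, cTEC values ranged from -0.36 to 1.10 for *Pdgfra*, -0.20 to 0.68 for *Lum*, -0.22 to 0.31 for *Fn1*, -0.66 to 0.77 for *Postn* and -0.15 to 0.40 for *Tgfbi*. In mTEClo they ranged from -0.24 to 0.40 for *Fn1* and -0.0538 to 0.29 for *Postn*. In mTEChi they ranged from -0.0211 to 0.0576 for *Pdgfrb*, -0.16 to 0.0164 for *Dcn*, -0.11 to 0.0889 for *Lum*, -0.19 to 0.0693 for *Ogn*, -0.0711 to 0.14 for *Mgp*, -0.0448 to 0.0850 for *Vim* and -0.0877 to 0.0897 for *Tgfbi*. Between populations the ranges that crossed 0 were -1.64 to 0.33 (*Pdgfrb*, WT cTEC against WT mTEClo), -0.0299 to 1.49 (*Pdgfra*, WT cTEC against WT mTEChi) and -0.37 to 0.29 (*Fn1*, KO mTEChi against KO mTEClo). The replicate block, whose numbers the labels do not name as pairs, put *Pdgfrb* in cTEC at 2.47 (adjusted p = 2.59e-05, edgeR), *Vim* at 0.60 and *Dcn* at -0.48. Among the members, counts were lowest for *Ogn* in mTEClo, at 36 to 98 per library.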

Other observations

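A single library carried high matrix transcripts that neither its genotype nor its population shared, a value chosen after the data were seen. In mTEClo KO replicate 2, *Sparcl1*, which encodes a matricellular protein, had 88962 counts (883 CPM) against 14.8 to 20.5 CPM in the other 5 mTEClo libraries. *Nid1*, encoding the basement membrane protein nidogen, had 2050 counts against 281 to 458 in the others, and *Spp1*, encoding osteopontin, had 2216 counts against 112 to 476. Of the 10 members, *Fn1* was highest there among the mTEClo libraries (480.0 CPM against 204 to 307 CPM) and so were *Mgp* (768 CPM), *Dcn* (224 CPM) and *Ogn* (0.973 CPM). *Postn* and *Lum* (19.3 and 10.2 CPM) were each second highest, and *Pdgfra*, *Pdgfrb*, *Vim* and *Tgfbi* were not raised (8.81, 4.81, 152 and 532 CPM). *Col3a1* was 140 CPM in this library and 73.3 to 93.6 CPM in the other 5.

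The 2 WT cTEC libraries also differed from each other in a set of members. Replicate 1 was higher than replicate 2 for *Pdgfra* (8.36 against 2.99 CPM), *Pdgfrb* (7.30 against 1.87 CPM), *Postn* (50.03 against 18.3 CPM) and *Lum* (34.1 against 18.8 CPM), and lower for *Ogn* (22.7 against 28.6 CPM) and *Vim* (113 against 135 CPM). The summed endothelial markers went the other way, at 27.3 CPM in replicate 1 and 126.5 CPM in replicate 2.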
